A study of Mus musculus with 7 samples.

Results

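The genes described here are 10 components of MHC class I antigen presentation, H2-K1, H2-D1, B2m, Tap1, Tap2, Tapbp, Psmb8, Psmb9, Psmb10 and Nlrc5. They were taken by symbol from the gene count table, in which each matched 1 of 55484 entries. RNA had been sequenced from mouse embryonic fibroblasts (MEF, 4 libraries, called O1 to O4) and from mouse embryonic stem cells (mESC, 3 libraries, called Y1 to Y3). All were labelled as C57/Bl6 background, with no treatment, further allele, age or passage named. The count columns named the cell type but not which sample of it, so the libraries are unpaired, and the labels do not say whether they came from separate cultures; p-values therefore measure only the spread between these libraries. The extraction text in the labels speaks of blood stem cells from young and aged mice, so how these cells were collected for RNA is not described.

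Class I molecules carry short peptides from inside the cell to its surface, where CD8 T cells read them and natural killer cells sense their loss. Peptides are cut by the proteasome, moved into the endoplasmic reticulum by the TAP transporter, and loaded there onto a heavy chain paired with β2-microglobulin. Interferon-gamma switches on many of these genes together, and undifferentiated embryonic stem cells are known for little class I protein on their surface.

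The members lie on 3 chromosomes. By GENCODE M21 on GRCm38, 7 lie on chromosome 17, in or beside the MHC: Tapbp at chr17:33915899-33929292 on the plus strand, H2-K1 at chr17:33996017-34000347 on the minus strand, Psmb9 at chr17:34181987-34187764 on the minus strand, Tap1 at chr17:34187553-34197225, Psmb8 at chr17:34197721-34201454, Tap2 at chr17:34203527-34216321 and H2-D1 at chr17:35262730-35267499, the last 4 on the plus strand. B2m lies at chr2:122147686-122153083 on the plus strand. Nlrc5 lies at chr8:94434356-94527272 on the plus strand and Psmb10 at chr8:105935735-105938444 on the minus strand. Tap1 and Psmb9 are read away from each other, with RefSeq start sites 226 bases apart, and their annotated exons overlap on opposite strands.

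Sequence upstream of the start sites is shown because B2m, which was lower in mESCs, and H2-K1, which was higher, share an element. RefSeq promoter windows on GRCm38.p6, from 250 bases before to 50 bases after a start site, matched 8 of the 10 members, all but Tap2 and Nlrc5. Both strands were searched for 4 elements of class I promoters. The X2 box and Y box pair, part of the platform through which NLRC5 acts, was searched as TGACG followed by ATTGG with 5 to 30 bases between them. It was present in 0.840% of 32851 mouse windows, and in those of all 3 genes of the surface molecule. The stretches from X2 box to Y box, with both boxes in capitals, read 5′ to 3′ on the strand of the gene:
B2m, chr2:122147609-122147638: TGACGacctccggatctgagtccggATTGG
H2-K1, chr17:34000359-34000388: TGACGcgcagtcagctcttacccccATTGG
H2-D1, chr17:35262993-35263022: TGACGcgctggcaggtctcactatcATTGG

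The kappa B element of class I enhancer A, in capitals here, was held by 0.107% of windows and by both heavy chain genes, in nearly the same surroundings:
H2-K1, chr17:34000439-34000468: gcccagggctGGGGATTCCCcatctccaca
H2-D1, chr17:35262913-35262942: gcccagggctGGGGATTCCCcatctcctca

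The interferon-stimulated response element, searched as GAAA repeated after any 2 bases, was in 3.44% of windows and, among the members, in that of B2m. The gamma-activated site, searched as TTC then GAA with any 3 bases between, was in 8.30% of windows and, among the members, in that of Psmb8. Both are shown because these are the 2 members that were lower in mESCs, with the element in capitals:
B2m, response element, chr2:122147538-122147567: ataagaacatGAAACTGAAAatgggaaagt
Psmb8, gamma-activated site, chr17:34198088-34198116: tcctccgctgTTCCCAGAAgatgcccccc
The windows of Tap1, Psmb9, Tapbp and Psmb10 held none of the 4 letter patterns. For any member, a pattern not found says only that these letters are not in its window. Whether the elements found bear on the levels of B2m or Psmb8 was not tested.

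The libraries held 6528643 to 11441278 counts in MEFs and 7462710 to 8193825 in mESCs. Of the marker genes, all 10 for fibroblasts were lower and 7 of 7 tested for pluripotent cells were higher in mESCs. Sox2, a core pluripotency factor, rose from 1.56 to 3.26 counts per 1000000 (CPM, scaled between libraries by the TMM method) in MEFs to 499 to 599 CPM in mESCs, and Col1a2, a collagen chain of fibroblasts, fell from 9721 to 16409 CPM to 52.6 to 67.5 CPM. Fibroblast genes were found in mESCs at a median of 1.80% of their MEF level (0.452% to 41.0%, the highest being Fn1), which is given for comparison with the members. Of 12 blood cell genes, summed levels were 25.5 to 79.4 CPM in MEFs and 28.3 to 33.4 CPM in mESCs. Of the 7 tested, Cd53 and Lyz2 were lower and Cd3e and Cd68 higher in mESCs, where 25% of all genes tested were lower and 22.8% higher. Ptprc, the pan-leukocyte antigen CD45, had 1 to 17 counts in MEF libraries and 0 to 1 in mESC libraries. Adgre1, a macrophage marker, had 3, 10, 0 and 8 counts in O1 to O4 and none in mESCs. Csf1r, the receptor for the macrophage growth factor CSF1, was at 6.40 to 22.6 CPM in MEFs and 9.09 to 14.3 CPM in mESCs and did not pass the threshold (edgeR adjusted p = 0.573). Of 6 endothelial genes, 4 were tested and 1 was higher in mESCs, Pecam1, which stem cells also express.

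The design gives 1 comparison, mESCs against MEFs, and fold changes below are mESC over MEF. In bulk RNA, fewer cells expressing a gene and less of its RNA per cell cannot be told apart. Of the 10 members, 9 passed the filter on low counts and were tested with edgeR's quasi-likelihood test, adjusted by Benjamini and Hochberg over all 16580 genes tested (threshold 0.05). B2m and Psmb8 were lower in mESCs, H2-K1 was higher, and 6 did not pass the threshold. Among all genes tested, 25% were lower and 22.8% higher, so 2 lower and 1 higher of 9 are a smaller share than the background. The median log2 fold change was −0.25 over the 9 members and 0.04 over all genes tested. The direction of change thus differed between members of the same pathway, as the plot of levels by library shows.

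**Figure D1:**
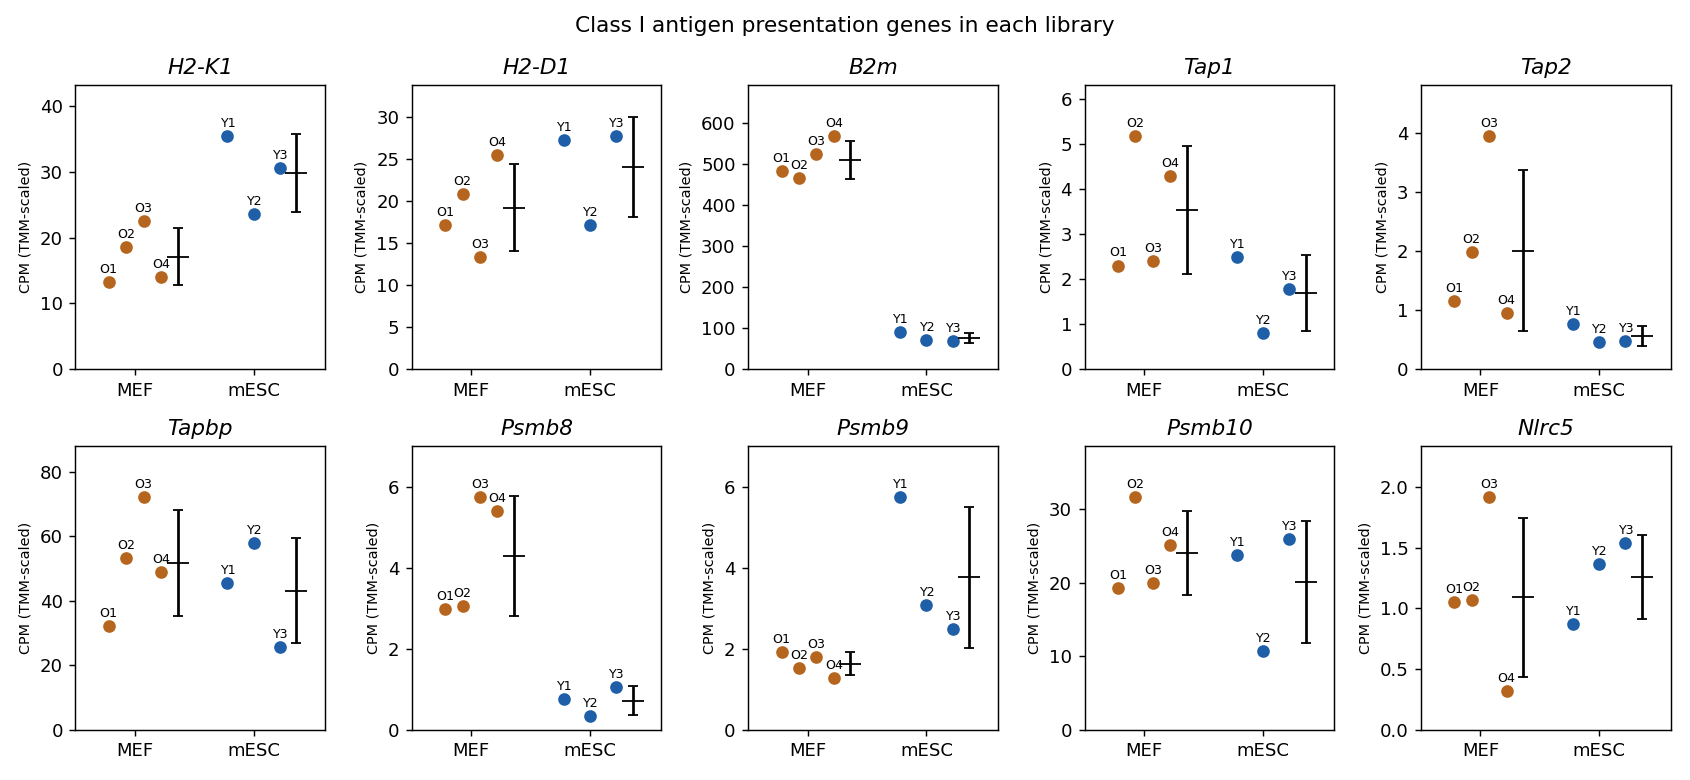
Level of each member in every library, in CPM after TMM scaling (vertical axis of each panel, starting at 0), for 4 MEF and 3 mESC libraries; bars give mean and SD. For B2m and Psmb8 the whole mESC group sits below the MEF group, for H2-K1 it sits above, and H2-D1, Tap1, Tapbp, Psmb10 and Nlrc5 overlap.

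B2m encodes β2-microglobulin, the light chain that pairs with the heavy chains of classical class I molecules. It stood at 483, 467, 524 and 569 CPM in MEF libraries O1 to O4 and at 89.5, 69.8 and 67.5 CPM in mESC libraries Y1 to Y3. The 2 groups were far apart, with mESCs below, and the libraries of 1 cell type lay close together. The means were 511 ± 45.5 CPM (SD, n = 4) and 75.6 ± 12.1 CPM (SD, n = 3), a 6.75-fold difference (log2 fold change −2.76 ± 0.159 SE, edgeR adjusted p = 3.33e-07). The mESC level was thus 14.8% of that in MEFs. The fibroblast genes were found at a median of 1.80%, with a range of 0.452% to 41.0% that includes the B2m value. The part of any fibroblasts in the mESC level of B2m was not tested. B2m was lower in mESCs in all 14 alternative fits, at log2 fold changes from −2.90 to −2.48. B2m was counted 572 to 5032 times in a library.

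H2-K1 encodes the heavy chain of the classical molecule K. Its level was 13.2, 18.6, 22.5 and 13.99 CPM in O1 to O4 and 35.4, 23.5 and 30.6 CPM in Y1 to Y3. Every mESC library lay above every MEF library, although Y2 and O3 were close. The means of 17.1 ± 4.33 CPM (SD, n = 4) and 29.8 ± 5.99 CPM (SD, n = 3) differed 1.75-fold (log2 fold change 0.80 ± 0.249 SE, edgeR adjusted p = 0.0211). The call rested on few libraries: the edgeR adjusted p was 0.0543 without O1, 0.0538 without O4, 0.0963 without Y1 and 0.0577 without Y3, with log2 fold changes of 0.69, 0.71, 0.66 and 0.78. H2-K1 was thus called in 9 of 14 alternative fits, the other loss being the test against a fold change of 2, and was above 0 in all of them.

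H2-D1 encodes the heavy chain of the other classical molecule of this strain, D. Its level was 17.2, 20.9, 13.3 and 25.4 CPM in MEFs and 27.3, 17.2 and 27.7 CPM in mESCs. Y2 fell among the MEF libraries and the groups overlapped. The means were 19.2 ± 5.19 CPM (SD, n = 4) and 24.1 ± 5.99 CPM (SD, n = 3). The log2 fold change of 0.33 ± 0.273 SE did not pass the threshold (edgeR adjusted p = 0.355, unadjusted 95% interval −0.27 to 0.93). Of the distinct 50-base stretches in the transcripts of H2-K1 and H2-D1, 9.63% and 12.8% also occur in other genes, on either strand. In the last 300 bases, where these 3′-end libraries read, the shares were 0.797% and 17.1%, so some H2-D1 reads could have been assigned elsewhere or dropped.

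The heavy chains were then set against their light chain within each library, where library scaling cancels. The log2 ratio of H2-K1 to B2m was −5.16, −4.63, −4.53 and −5.32 in MEFs and −1.33, −1.56 and −1.14 in mESCs. That of H2-D1 to B2m was −4.79, −4.47, −5.27 and −4.47 in MEFs and −1.70, −2.01 and −1.28 in mESCs. Neither ratio overlapped between the cell types. Both ratios hold B2m, whose own log2 fold change was −2.76, so they are not independent of that difference or of each other. The H2-K1 to B2m ratio differed by 3.57 on the log2 scale and the H2-D1 to B2m ratio by 3.09. For each, the two-sided exact permutation test over all 35 arrangements gave p = 0.0286, the smallest it can give, and 0.0762 after adjustment over 8 ratios. The adjusted threshold therefore was not passed by any of the 8 ratios. H2-K1 to H2-D1 differed by 0.48, and its libraries overlapped (exact permutation p = 0.286, adjusted 0.457).

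**Figure D2:**
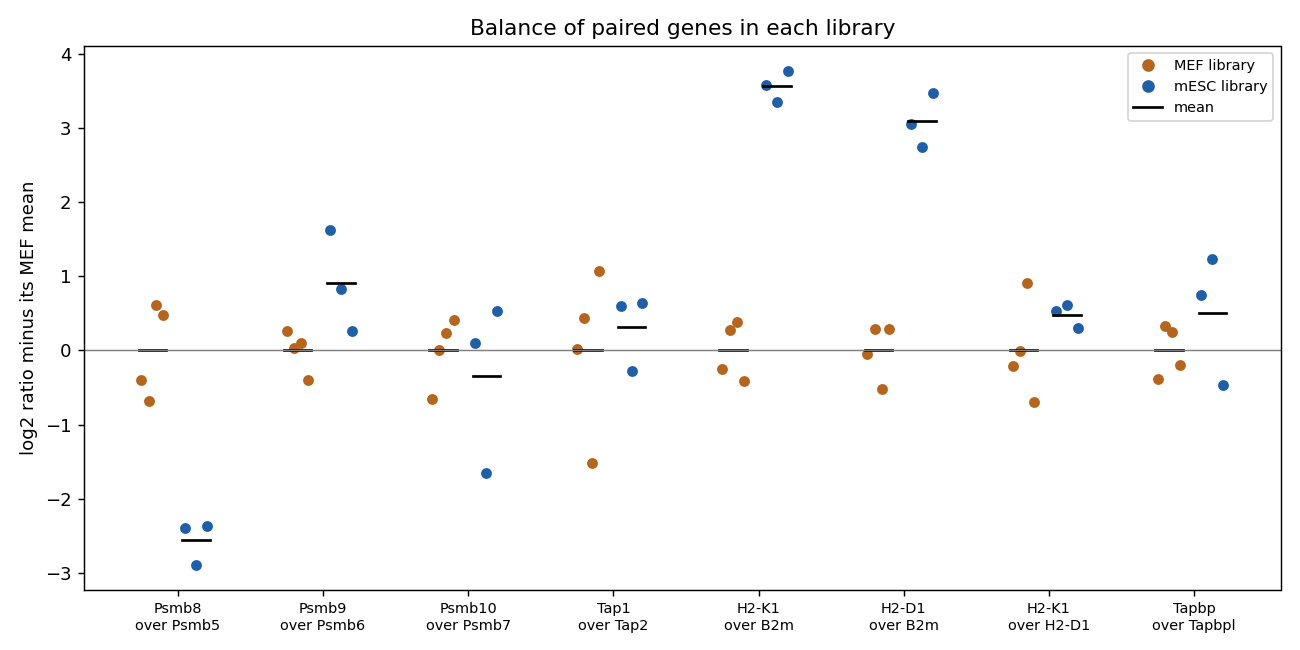
Log2 ratio of 2 genes in each library, less the mean of that ratio in MEFs (vertical axis), for 8 pairs; points are libraries and lines are means. The heavy chain to B2m ratios lie above all MEF libraries and the Psmb8 to Psmb5 ratio below them, while the other 5 overlap.

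Tap1 and Tap2 encode both chains of the peptide transporter in the endoplasmic reticulum membrane. Tap1 was at 2.30, 5.18, 2.397 and 4.29 CPM in MEFs and at 2.49, 0.795 and 1.77 CPM in mESCs. Y1 lay above O1 and O3, and the difference did not pass the threshold (log2 fold change −1.05 ± 0.545 SE, edgeR adjusted p = 0.139, unadjusted 95% interval −2.26 to 0.16). Tap2 was counted 12, 13, 33 and 6 times in MEF libraries and 7, 4 and 4 times in mESC libraries, which is too few to pass the filter. In CPM these were 1.15, 1.98, 3.95 and 0.954 against 0.759, 0.454 and 0.472, with every mESC library below every MEF library and O3 well above the rest. Tap2 was not tested, and without the filter its log2 fold change was −1.85 (edgeR adjusted p = 0.100). The Tap1 to Tap2 ratio differed by 0.32 on the log2 scale and overlapped (exact permutation p = 0.743, adjusted 0.743), and without O3 the difference was −0.19. Exons of a predicted gene on the opposite strand cover 14.1% of Tap2, and the strand setting used in counting is not given in the sources used here.

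Tapbp encodes tapasin, which bridges the transporter and the empty class I molecule. It was at 32.2, 53.4, 72.3 and 48.8 CPM in MEFs and 45.5, 58.1 and 25.7 CPM in mESCs. The cell types spanned much the same range, with the lowest value in Y3 and the highest in O3. The log2 fold change was −0.26 ± 0.310 SE (edgeR adjusted p = 0.530, unadjusted 95% interval −0.95 to 0.43), and without scaling beyond library size it was 0.02. Exons of a predicted gene on the opposite strand cover 24.9% of Tapbp and, for another such gene, 14.7% of Psmb8. Tapbpl, a relative of Tapbp, is a peptide editor that acts outside the loading complex. Tapbpl was at 7.77 to 11.3 CPM in MEFs and 4.43 to 6.49 CPM in mESCs (log2 fold change −0.82, edgeR adjusted p = 0.0533). The log2 ratio of Tapbp to Tapbpl differed by 0.51 and overlapped (exact permutation p = 0.371, adjusted 0.495).

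Psmb8, Psmb9 and Psmb10 encode the catalytic subunits LMP7, LMP2 and MECL-1 of the immunoproteasome, which take the places of Psmb5, Psmb6 and Psmb7 and favour peptides that class I molecules can bind. Of these 3, Psmb8 was lower in mESCs and the other two did not pass the threshold. Psmb8 was at 2.97, 3.05, 5.75 and 5.41 CPM in MEFs and 0.759, 0.341 and 1.06 CPM in mESCs. All mESC libraries were lower, with only 7, 3 and 9 counts, and Y2 was at the limit of 3 counts that a count of 0 would still allow. The means were 4.30 ± 1.49 CPM (SD, n = 4) and 0.720 ± 0.362 CPM (SD, n = 3), a 5.86-fold difference as fitted (log2 fold change −2.55 ± 0.561 SE, edgeR adjusted p = 0.00337).

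Psmb8 was higher in O3 and O4 than in O1 and O2, and so were other genes. The 12 blood cell genes summed to 41.1, 25.5, 74.5 and 79.4 CPM in O1 to O4, and 16 interferon response genes to 85.6, 99.4, 197 and 212 CPM. Lyz2, a lysozyme of myeloid cells, was at 6.62, 8.69, 32.7 and 35.8 CPM in the same libraries. The part of such cells or of the interferon response in the Psmb8 level was not tested. With O3 and O4 both left out, Psmb8 remained lower in mESCs (log2 fold change −2.07, edgeR adjusted p = 0.0425), as it did in all 14 alternative fits. B2m was at 483 and 467 CPM in O1 and O2 against 524 and 569 CPM in O3 and O4, and its log2 fold change was −2.68 without the latter.

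**Figure D3:**
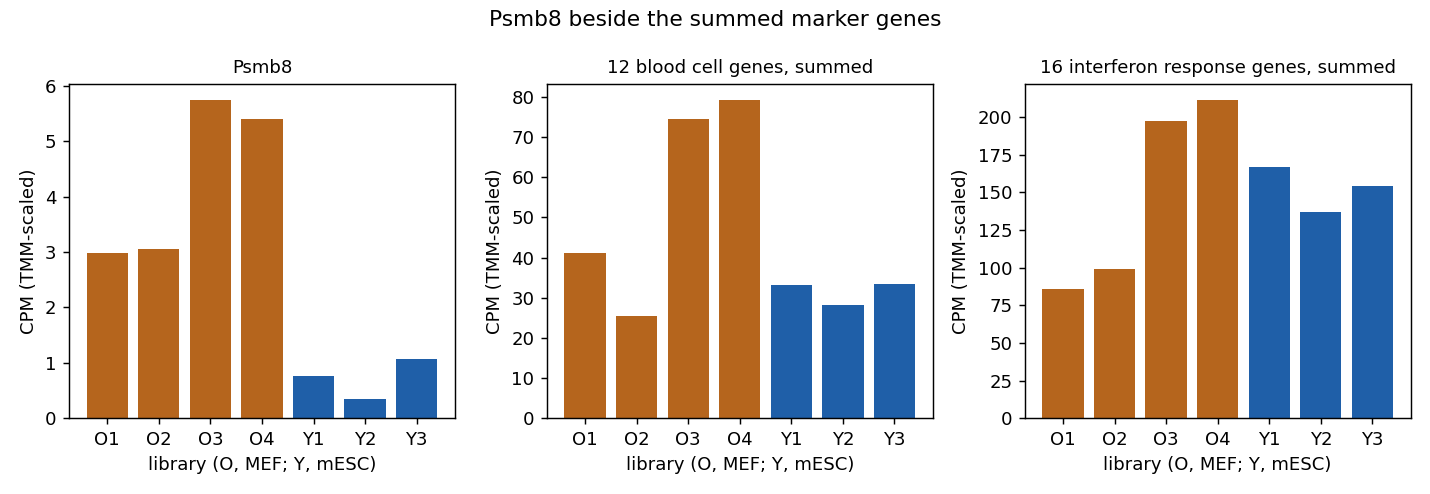
Level of Psmb8, and summed level of 12 blood cell genes and of 16 interferon response genes, in each library, in CPM after TMM scaling (vertical axes, starting at 0). All are higher in MEF libraries O3 and O4 than in O1 and O2, and Psmb8 alone of the 3 is below every MEF library in all mESC libraries. The interferon response sums in Y1 to Y3, 167, 137 and 154 CPM, are mostly Bst2, at 142, 118 and 126 CPM. Bst2 is at 20.2, 19.1, 42.5 and 51.4 CPM in O1 to O4.

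Psmb9 differed in the other direction, short of the threshold. It was at 1.92, 1.52, 1.80 and 1.27 CPM in MEFs and 5.74, 3.07 and 2.48 CPM in mESCs. Each mESC library lay above each MEF library, with Y1 well above the other mESC libraries. The means were 1.63 ± 0.289 CPM (SD, n = 4) and 3.76 ± 1.74 CPM (SD, n = 3), and the log2 fold change of 1.19 ± 0.467 SE missed the threshold (edgeR adjusted p = 0.0566). It passed in 2 of 14 alternative fits, without scaling and with a stricter filter on low counts. Tap1, whose start site faces away from that of Psmb9 within the same 226 bases, had a log2 fold change of the opposite sign. Their exons overlap on opposite strands near the start sites of both genes, away from the ends that these 3′-end libraries read. Any reads of the overlap can be told apart only by strand.

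Psmb10 was at 19.3, 31.7, 20.01 and 25.1 CPM in MEFs and 23.7, 10.7 and 26.0 CPM in mESCs. Y2 was the lowest library and the others overlapped. The log2 fold change was −0.25 ± 0.317 SE (edgeR adjusted p = 0.551, unadjusted 95% interval −0.95 to 0.45), and it was 0.05 without Y2.

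Against the standard subunits, the log2 ratio of Psmb8 to Psmb5 was lower by 2.55 in mESCs and its libraries did not overlap (exact permutation p = 0.0286, adjusted 0.0762). Psmb8 alone had a log2 fold change of −2.55, so this ratio is not independent of that result. Psmb9 to Psmb6 differed by 0.91 with overlap (exact permutation p = 0.0571, adjusted 0.114). Psmb10 to Psmb7 differed by −0.34 with overlap (exact permutation p = 0.657, adjusted 0.743), and by 0.32 without Y2. The standard subunits themselves did not pass the threshold, with log2 fold changes of 0.32 for Psmb5, 0.13 for Psmb6 and 0.01 for Psmb7. Of the distinct 50-base stretches of Psmb5 transcripts, 54.1% also occur in other genes. Of those in the last 300 bases of Psmb7, 82.1% are sequence of Nek6 on the opposite strand. The levels of Psmb5 and Psmb7 are therefore uncertain.

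Nlrc5 encodes the transactivator that drives class I genes through the promoter platform shown above. It was counted 11, 7, 16 and 2 times in MEF libraries and 8, 12 and 13 times in mESC libraries. In CPM it was at 1.06, 1.07, 1.92 and 0.318 in MEFs and 0.867, 1.36 and 1.53 in mESCs, with overlap and with O4 under the limit of 3 counts. At this depth no difference was detectable (log2 fold change 0.18 ± 0.631 SE, edgeR adjusted p = 0.841, unadjusted 95% interval −1.22 to 1.58), and the value was −0.12 without O4.

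**Figure D4:**
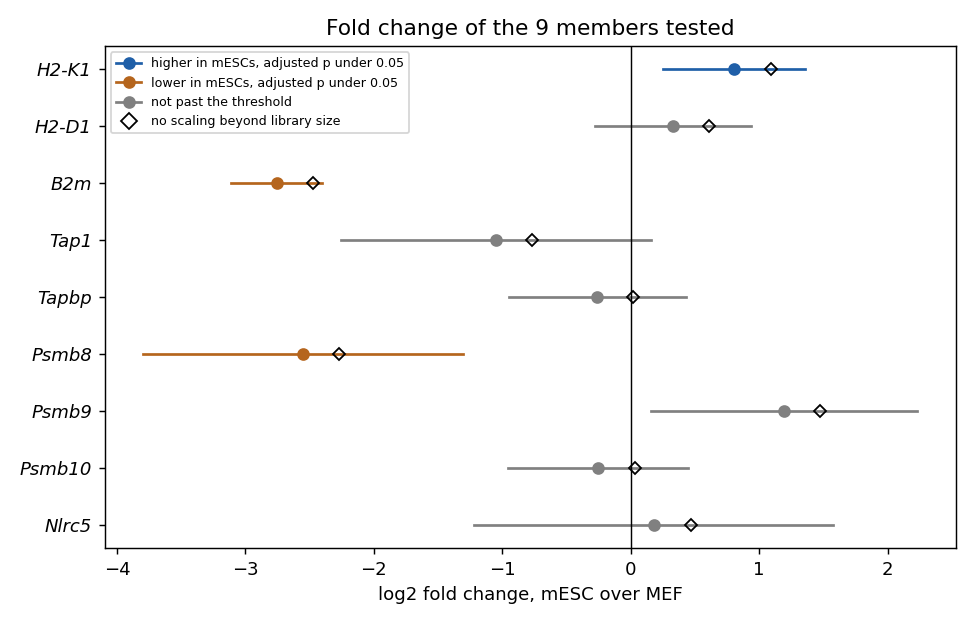
Log2 fold change of mESCs over MEFs (horizontal axis) for the 9 members tested, with unadjusted 95% intervals from edgeR's quasi-likelihood fit; open diamonds are values without scaling beyond library size. B2m and Psmb8 lie below 0, and H2-K1 above it, on both scales, whereas Tapbp and Psmb10 change sign.

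Library by library, the 10 members summed to 574, 604, 668 and 694 CPM in O1 to O4 and to 232, 185 and 185 CPM in Y1 to Y3. B2m alone held 483, 467, 524 and 569 CPM of these sums in MEFs and 89.5, 69.8 and 67.5 CPM in mESCs. The lower sums in mESCs therefore followed B2m and do not describe the members together. No library was high or low for all members. Among MEF libraries O3 was highest for 5 members and O1 lowest for 5. Among mESC libraries Y1 was highest for 5 members and Y2 lowest for 6. Of all 10 members, 5 had libraries that did not overlap between the cell types, B2m, Psmb8 and Tap2 lower and H2-K1 and Psmb9 higher, and 4 of these were among the 9 tested. Over all genes tested, 52.1% did not overlap. The genes outside the list whose centred log2 CPM ran closest to the mean of the 9 tested members over the 7 libraries were Syngr2, Bri3bp, Samd4b, Polr2m and Zfp260, at a mean absolute distance of 0.0548 to 0.0678 on the log2 scale.

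Genes that act beside the members were described from lists, by counts only. Each count below stands beside the shares over all genes tested, 25% lower and 22.8% higher. Of 11 genes of peptide loading and trimming, all were tested, 5 were lower in mESCs and none was higher, with a median log2 fold change of −0.82. Erap1, the aminopeptidase that trims peptides to length, fell from 3.93 to 5.39 CPM in MEFs to 0.708 to 2.38 CPM in mESCs (log2 fold change −1.84, edgeR adjusted p = 0.0120). Pdia3, the disulphide isomerase of the loading complex, fell from 553 to 770 CPM to 182 to 249 CPM (log2 fold change −1.67, edgeR adjusted p = 1.57e-05). Calr, the chaperone calreticulin, fell from 696 to 859 CPM to 238 to 304 CPM (log2 fold change −1.51, edgeR adjusted p = 7.81e-06). Pdia3 and Calr also fold many other glycoproteins.

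Of 8 proteasome genes, 1 rose and 1 fell, with a median log2 fold change of 0.05. Psme4, which encodes the activator PA200, rose (log2 fold change 1.56, edgeR adjusted p = 4.06e-05). Psme2, which encodes the interferon-inducible activator subunit PA28β, fell from 12.3 to 19.7 CPM in MEFs to 5.74 to 7.73 CPM in mESCs (log2 fold change −1.11, edgeR adjusted p = 0.00752). With O3 and O4 left out, no proteasome gene was lower.

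Of 25 other class I and class I-like heavy chain genes, 24 were in the table and 13 were tested. Of these, 5 were lower and 1 was higher in mESCs, with a median log2 fold change of −1.23. The lower genes included Mr1, which presents vitamin metabolites to mucosal T cells (−2.85, edgeR adjusted p = 0.00160), Procr, a class I-like receptor for protein C (−2.62, adjusted p = 0.00206), and H2-T22, a non-classical ligand of gamma delta T cells (−2.31, adjusted p = 0.00465). H2-M5 was higher, at 11.4 to 26.7 CPM in MEFs and 40.9 to 43.9 CPM in mESCs (1.39, edgeR adjusted p = 0.00243). With O3 and O4 left out, 3 were lower and 2 higher, and without Y3 alone 2 were higher. Many of these genes are near copies of each other, so their counts are uncertain.

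Of 25 genes that regulate class I transcription, 24 were tested, 11 were lower and 4 were higher in mESCs, with a median log2 fold change of −0.61. Both chains of the interferon-gamma receptor were lower in every mESC library. Ifngr1, the chain that binds the ligand, was at 120, 91.2, 108 and 66.3 CPM in MEFs and 8.24, 13.6 and 10.6 CPM in mESCs (−3.15, edgeR adjusted p = 4.67e-06). Ifngr2, the signalling chain, was at 86.0, 109, 76.7 and 63.0 CPM and 9.43, 8.52 and 4.60 CPM (−3.47, edgeR adjusted p = 5.03e-06). Neither group of libraries came near the other for these genes. Jak2, the kinase bound to Ifngr2, was lower as well (−2.50, edgeR adjusted p = 0.000527).

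Irf1, which binds the response element, was at 5.76, 10.2, 14.02 and 18.3 CPM in MEFs and 14.7, 29.995 and 20.8 CPM in mESCs, with overlap (0.86, edgeR adjusted p = 0.0859). Irf1 was named after its values were seen. The regulators higher in mESCs included Rfx5, a subunit of the complex that binds beside the X2 box (1.79, edgeR adjusted p = 0.0395). They also included Nfyb, a subunit of the factor that binds the Y box (1.17, edgeR adjusted p = 0.000112). Tyk2, a kinase of the type I interferon receptor, was higher too (0.89, edgeR adjusted p = 0.0376). Some other parts of the same complexes were lower in mESCs, and others did not pass the threshold. Rfxap and Rfxank, which belong to the same complex as Rfx5, did not pass it (−0.41 and 0.90, edgeR adjusted p = 0.278 and 0.188). Rfx5 itself overlapped between the cell types, at 1.63, 0.610, 0.360 and 2.39 CPM in MEFs and 2.38, 4.43 and 6.13 CPM in mESCs. Its count in O3 was 3, at the limit. Nfyc, another subunit of the Y box factor, had a log2 fold change of −0.69 (edgeR adjusted p = 0.0219), whereas Nfya did not pass the threshold (0.20, edgeR adjusted p = 0.667). The type I receptor chains Ifnar1 and Ifnar2 had log2 fold changes of −1.31 and −1.96 (edgeR adjusted p = 0.00429 and 3.81e-05). The number of higher regulators was unsteady, at 2 without O1, O3 or Y1 and 1 without O2, Y2 or Y3.

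Of 16 interferon response genes, 13 were tested, 5 were lower and 2 were higher in mESCs, with a median log2 fold change of −1.46. Isg15, a ubiquitin-like protein, was at 23.6, 23.8, 73.2 and 85.6 CPM in O1 to O4 and at 1.08, 0.227 and 0.708 CPM in mESCs (−6.22, edgeR adjusted p = 3.44e-05). Gbp7 and Gbp2, guanylate-binding proteins, were also lower (−4.26 and −4.13, edgeR adjusted p = 0.00231 and 0.000231). Bst2, which tethers budding viruses, went the other way and rose to 118 to 142 CPM from 19.1 to 51.4 CPM (1.95, edgeR adjusted p = 0.000577). Oas1a was higher at 10 to 14 counts a library in mESCs and 0 to 3 in MEFs (2.79, edgeR adjusted p = 0.00827), and with O3 and O4 left out 1 of the genes was higher.

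**Figure D5:**
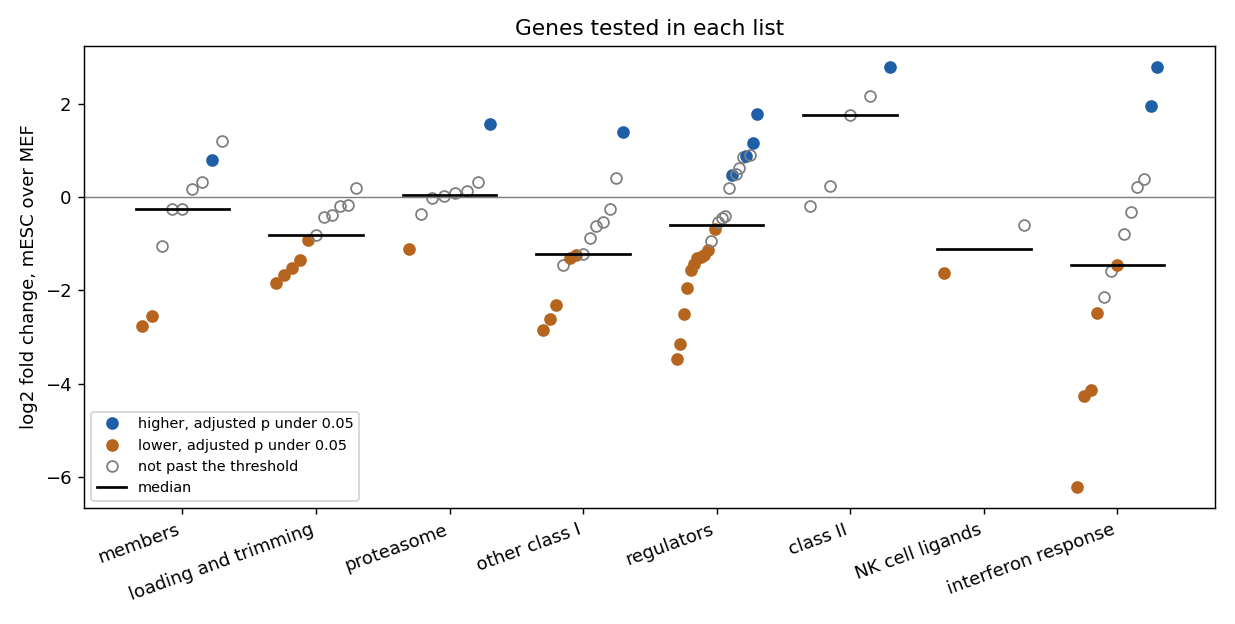
Log2 fold change of mESCs over MEFs (vertical axis) for the genes tested in each list (horizontal axis); filled points passed the threshold and lines are medians. The members spread to both sides of 0, and the loading, other class I, regulator and interferon response lists have medians from −1.46 to −0.61.

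Class II genes present peptides from outside the cell and share the promoter platform. Other than H2-Eb1, they stood at 4.66 CPM or less in every library. Of 9, 5 were tested and 1 was higher in mESCs, H2-Eb1. It was at 0.305 to 2.52 CPM in MEFs, with 2 counts in O2 and in O4. In mESCs it was at 4.96 to 13.98 CPM (2.78, edgeR adjusted p = 0.00550). The number of higher class II genes was 2 without Y2 and 3 without O3 and O4. Ciita, the class II transactivator related to NLRC5, was too low to be tested. Of 8 ligands of the natural killer cell receptor NKG2D, 5 were in the table and 2 were tested, and Raet1e was lower in mESCs (−1.62, edgeR adjusted p = 0.00109).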

How the data were processed

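The authors deposited 1 table of raw counts per gene for the 7 libraries, made with a 3′-biased protocol in which each molecule carries a unique molecular identifier. Per the labels and methods, reads were aligned to GRCm38 with STAR (version 2.4.2a in the submitters' processing notes) and counted with featureCounts. The strand setting and annotation release are not given in the sources used here. Every library was used as deposited, and 0 columns were left out.

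Counts were tested over the whole table with edgeR 4.0.16 (R 4.3.3; TMM scaling, filterByExpr with a minimum count of 10, glmQLFit and glmQLFTest), which kept 16580 of 55484 genes. CPM values use TMM-scaled library sizes, and log2 CPM a prior count of 2. The SE is the log2 fold change over the square root of F. Log2 ratios of gene pairs were compared by a two-sided exact permutation test over all 35 arrangements of the libraries, adjusted over 8 pairs. The scripts were tested on simulated data.

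A limit of 3 counts corresponded to 0.288 to 0.477 CPM and covers counting error only. Same-type libraries differed beyond counting noise (chi-square per degree of freedom of 18.1 or more), so none was counted as the same library deposited again; this does not show separate cultures. Coordinates and shared 50-base stretches come from GENCODE M21, and promoter windows from RefSeq on GRCm38.p6.

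The members and lists were chosen with earlier results of these data known. Named were all members, pair partners and the 5 genes most like the members. From each list, the 3 largest rises and 3 largest falls past the threshold were named, or fewer where fewer passed. Of the pluripotency and fibroblast markers, only the gene with the largest change was named in this way. Ptprc, Adgre1, Csf1r, Ciita, Fn1, Irf1, Nfya, Nfyc, Rfxap, Rfxank, Ifnar1 and Ifnar2 fall outside these rules and were named after their values were seen. Blood, interferon response, fibroblast, pluripotency and endothelial lists served as markers. Alternatives were DESeq2 1.42.0, its size factors, no scaling, other filters, a test against a fold change of 2, and leaving out libraries.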

Additional observations from a re-analysis of the deposited data

Results flagged for a closer look

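Among the genes named above, Nfyb stood apart in 1 MEF library: O1 held 69.0 CPM, against 90.8 to 96.0 CPM in O2 to O4, a gap past the 95% critical value of Dixon's test for 4 values. None of the 10 members had such a library. Chance flags about 1 in 20 groups, and 10 of the 140 listed genes examined had one.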

How the results depend on the processing

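B2m and Psmb8 were lower and H2-K1 was above 0 in all 14 alternative fits. Leaving out O3 and O4 together was chosen after seeing the data. Depth limits Tap1, Tap2, Psmb8, Psmb9 and Nlrc5, which had at most 53 counts in any library against 88 or more for the other members, and Nlrc5 could not be tested without O3 or under the stricter filter.

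Without scaling beyond library size, which moved the median over all genes by 0.28 (log2) and gave 5180 higher and 3345 lower genes in place of 3785 and 4153, 2 members were higher, Psmb9 (1.48, edgeR adjusted p = 0.0219) joining H2-K1; Tapbp and Psmb10 changed sign to 0.016 and 0.036, and 2 proteasome and 2 class II genes were higher. Requiring 10 counts in every library of a cell type also made Psmb9 pass (1.17, edgeR adjusted p = 0.0449), so that 2 members were higher, with 2 class II genes higher and 1 blood gene lower. Without the filter, 5 blood genes and 1 endothelial gene were lower, and 2 endothelial and 2 other class I genes were higher. Tested against a fold change of 2, no member was higher (0 of 9; H2-K1 0.80, edgeR adjusted p = 0.971), and the counts of lower genes were 3 for loading, 0 for the proteasome, 3 for other class I, 5 for regulators and 1 for blood, with 0 other class I genes, 0 regulators and 1 blood gene higher; all genes called were 3991 in place of 7938. Without O3 and O4, the counts of lower genes were 0 for the proteasome, 3 for other class I, 0 for blood and 1 for endothelial genes, and those of higher genes 2 for other class I, 3 for class II, 1 for blood, 2 for endothelial and 1 for interferon response genes. With a prior count of 0.5, the Psmb9 to Psmb6 difference was 0.98 (exact permutation p = 0.0286).

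Leaving out each library in turn, the number of higher members ranged from 0 to 1, of lower blood genes from 1 to 3, of lower endothelial genes from 0 to 1, and of higher genes from 1 to 2 for other class I, 1 to 4 for regulators, 1 to 2 for class II, 1 to 2 for blood and 1 to 2 for endothelial genes. The log2 fold change of H2-K1 ranged from 0.66 to 0.96, of Psmb10 from −0.48 to 0.049 (above 0 without Y2) and of Nlrc5 from −0.12 to 0.38 (below 0 without O4). The Psmb10 to Psmb7 difference ranged from −0.78 to 0.32 (above 0 without Y2) and Tap1 to Tap2 from −0.19 to 0.68 (below 0 without O3). The cause was not tested for any of these values.

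No paired analysis was possible because columns of the count table do not say which numbered sample of a cell type they hold.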
